A study of Mus musculus with 4 samples.

Results

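Adam8, Adam10, Adam17, Adamts1, Adamts2, Adamts4, Adamts5, Adamts9 and Adamts12 encode metalloproteases of the cell surface and the extracellular matrix. These 9 genes were taken by name from the 25149 measured in single nonparenchymal liver cells, those that stayed in suspension when hepatocytes were pelleted. Of the 9, 3 belong to the ADAM family and 6 to the ADAMTS family, and all 9 were detected. The CCl4 group was 2 wild-type male mice aged 8 to 10 weeks injected into the peritoneum with carbon tetrachloride (CCl4) diluted 1 to 9 in corn oil, each dose being 10 µl for every g the animal weighed. The corn oil group was 2 wild-type male mice of the same age that received corn oil alone. Injections were given 2 times a week for 5 weeks, and livers were taken 48 hours after the last one. CCl4 is a solvent toxic to hepatocytes, and its repeated use is a standard model of liver fibrosis. Each library came from 1 mouse, so the replicates were animals.

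ADAM proteases are anchored in the plasma membrane and release the outer parts of other membrane proteins, a step known as shedding. ADAMTS proteases are secreted, bind matrix through thrombospondin repeats, and cut proteoglycans such as versican and aggrecan or trim procollagen. Both kinds are made as inactive precursors, many of which furin-like convertases activate, and TIMP proteins inhibit many of these proteases. In injured liver they are studied for growth factor release, leukocyte entry and the turnover of the scar matrix made by hepatic stellate cells.

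The tables held 27091 cells, 5948 and 6313 in the CCl4 libraries and 7167 and 7663 in the corn oil libraries. Library totals ran from 45408857 to 55529871 unique molecules (UMIs), with medians per cell of 6861 and 6162 in CCl4 libraries and 5397 and 4493 in corn oil libraries. Of 25861 cells kept, 20685 fell into exactly 1 of 4 gates set by UMIs of marker genes (endothelial, stellate, Kupffer and monocyte), 2345 into 2 or more and 2831 into none. Cells per gate in CCl4 and then corn oil mice were 3085 and 2795 against 5287 and 5370 endothelial, 462 and 144 against 179 and 145 stellate, and 228 and 225 against 217 and 222 Kupffer cells. The monocyte gate held 911 and 1349 cells of CCl4 mice but 43 and 23 of corn oil mice. The summed level of 6 further markers per cell type was highest in the gate of that name in every library. In the monocyte gate, Kupffer markers made up 282 and 258 of every 1000000 UMIs in CCl4 mice, against 2332 and 3300 in corn oil mice, so the small corn oil gate was not pure. The file headers date the pipeline analysis of the CCl4 1 table to a separate day, although the labels name 1 batch. That is a date of data processing, and it cannot be told apart from the mouse in this table. Pairs of libraries shared 48 to 74 cell labels.

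Below, a level is the gene's UMIs per 1000000 UMIs summed over a gate in 1 library (CPM), and values are given as the 2 CCl4 libraries against the 2 corn oil libraries, replicate 1 before replicate 2. A gene was called changed at a Benjamini-Hochberg adjusted p under 0.05 in edgeR's quasi-likelihood test on the summed UMIs. A level falls both when fewer cells of a gate express a gene and when each holds less of its RNA, and the sums do not separate these. Levels were not compared between genes.

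The members lie on 8 chromosomes of GRCm38, and Adamts1 (chr16:85793827-85803113) and Adamts5 (chr16:85856173-85901828) are both on the minus strand of chromosome 16. RefSeq promoter sequence (GRCm38.p6) was at hand for 7 members, all but Adamts4 and Adamts5. The 250 bases before the RefSeq start are shown for Adam8, Adamts9 and Adamts12, which were called higher in at least 1 gate, and for Adamts1, an endothelial gene that was not called. Their positions are chr7:139992563-139992812 for Adam8 (minus strand), chr6:92943535-92943784 for Adamts9 (minus strand), chr15:11064523-11064772 for Adamts12 (plus strand) and chr16:85803114-85803363 for Adamts1 (minus strand). Each is written 5′ to 3′ on the gene's strand, with a TATAAA match in capitals.
Adam8: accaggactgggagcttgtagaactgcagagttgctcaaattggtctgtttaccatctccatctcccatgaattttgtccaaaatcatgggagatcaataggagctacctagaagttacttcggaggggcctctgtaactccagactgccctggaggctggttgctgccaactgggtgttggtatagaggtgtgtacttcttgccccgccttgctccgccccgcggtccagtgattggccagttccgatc
Adamts9: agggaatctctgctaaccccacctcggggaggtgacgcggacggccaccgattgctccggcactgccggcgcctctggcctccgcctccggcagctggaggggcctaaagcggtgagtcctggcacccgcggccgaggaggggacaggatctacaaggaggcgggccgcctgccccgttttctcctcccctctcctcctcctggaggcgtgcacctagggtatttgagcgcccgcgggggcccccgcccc
Adamts12: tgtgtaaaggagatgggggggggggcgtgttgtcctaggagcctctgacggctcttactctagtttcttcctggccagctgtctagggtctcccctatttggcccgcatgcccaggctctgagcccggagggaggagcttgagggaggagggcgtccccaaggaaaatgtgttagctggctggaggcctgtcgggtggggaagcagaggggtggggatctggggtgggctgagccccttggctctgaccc
Adamts1: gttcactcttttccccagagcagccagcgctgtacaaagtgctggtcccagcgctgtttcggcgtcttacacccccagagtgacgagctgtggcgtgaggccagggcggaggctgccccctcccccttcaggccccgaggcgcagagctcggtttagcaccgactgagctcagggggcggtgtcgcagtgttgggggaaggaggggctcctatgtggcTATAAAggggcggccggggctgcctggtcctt

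Both strands of these 250 bases were searched for 5 motifs, none of which overlaps another. The AP-1 motif TGANTCA occurs in 6.75% of the 32851 RefSeq promoters of the same length and the CRE motif TGACGTCA in 1.55%. The E-box CACGTG is present in 6.02%, the TEAD motif GGAATG in 12.6% and the TATA motif TATAAA in 12.4%. Among the 7 members, Adamts1 held TATAAA 32 to 27 bases before its start and Adam10 held CACGTG 64 to 59 bases before. Neither motif nor the other 3 was found in the windows of Adam8, Adamts9 or Adamts12. The GC content was 52.8% for Adam8, 71.2% for Adamts9, 63.2% for Adamts12 and 65.6% for Adamts1, against a median of 52.4% over all promoters.

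Averaged over the treatments, the ADAM genes were highest in the monocyte or Kupffer gate, and the ADAMTS genes in the stellate or endothelial gate. In corn oil mice alone, Adamts4 had its highest mean in the monocyte gate (10.49 CPM, from 21.0 and 0), which overlapped the endothelial gate (6.09 CPM). Each gate was set against the mean of the other 3 in 1 fit over 16 sums with the mouse as a block, in which the treatments were averaged. At this threshold many genes differ. Of 12629 genes, 59.0% were called for the endothelial, 51.1% for the stellate, 50.5% for the Kupffer and 40.4% for the monocyte gate. A call is thus common, and the size and direction carry the description. Of the 9 members, 5, 8, 8 and 5 were called in these 4 contrasts. The gates' defining genes include no member.

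Adam8, a leukocyte surface protease, was highest in the monocyte gate (log2 difference 4.33, adjusted p = 8.55e-08) and low in the stellate gate (-2.93). Adam10, the main sheddase of Notch and of many adhesion molecules, was higher in the monocyte (1.34) and Kupffer gates (0.50) and lower in the stellate gate (-1.63). Adam17, which releases TNF and ligands of the EGF receptor, was higher in Kupffer (1.22) and monocyte cells (0.92) and lower in stellate (-1.70) and endothelial cells (-0.44). All 3 ADAM genes were thus lowest in the stellate gate by this contrast.

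Adamts2, the procollagen N-proteinase, was a stellate gene (5.74) and low in endothelial cells (-4.19). Adamts5, Adamts9 and Adamts12 were also highest in the stellate gate, with differences of 4.97, 4.05 and 5.66. Adamts9 was higher in the endothelial gate as well (1.03). Adamts1, which cuts versican and restrains angiogenesis, was higher in the endothelial (4.07) and stellate gates (3.01). Adamts4, an aggrecanase that also cuts versican, was called higher in the endothelial gate (3.71, adjusted p = 1.3e-05) and not in the stellate gate (1.37). All 6 ADAMTS genes were low in Kupffer cells, with differences between -6.53 for Adamts4 and -3.07 for Adamts2. Kupffer cells held 5 and 2 Adamts4 UMIs in CCl4 mice and 0 and 0 in corn oil mice, so -6.53 is no measure of size. Adamts4 was not called there without corn oil replicate 2 (-5.67) or with purer gates (-5.19). All 6 calls were lost when corn oil replicate 1 was left out (differences between -5.45 for Adamts9 and -1.21 for Adamts2). The remaining corn oil monocyte gate then held 0 UMIs of each of the 6. The endothelial call of Adamts2 was lost there too (-2.30), and that of Adamts9 without CCl4 replicate 1 (0.82, adjusted p = 0.116). Adamts2 was also called higher in the monocyte gate (1.53). That call was lost with DESeq2 (1.16, DESeq2 adjusted p = 0.0805), and the difference was -4.27 without corn oil replicate 1.

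The share of each gene's UMIs that a gate held also depends on how many cells it contains. Adamts1 came mostly from the endothelial gate in all 4 libraries, with 75.6% and 86.8% of its UMIs in CCl4 mice and 83.8% and 74.7% in corn oil mice. Adamts12 UMIs came from the stellate gate to 54.6% and 38.2% in CCl4 mice against 13.9% and 7.75% in corn oil mice, and from the endothelial gate to 14.4% and 37.2% against 58.4% and 69.8%. The endothelial share of Adamts5 was 37.8% and 45.1% in CCl4 mice against 11.6% and 17.8% in corn oil mice. Cells that fell into 2 or more gates, left out of the tests by gate, held 17.8% and 12.0% of Adamts5 UMIs in CCl4 mice against 41.3% and 49.3% in corn oil mice. Adam10 UMIs came from the endothelial gate to 42.2% and 36.1% in CCl4 mice against 60.6% and 52.0% in corn oil mice, the largest share in every library. The monocyte gate held 18.4% and 31.8% of them in CCl4 mice against 2.45% and 1.45% in corn oil mice. Its share of the UMIs of all genes was 10.2% and 18.8% against 1.31% and 0.54%. The main holder of Adamts12 was therefore not the same gate in every CCl4 and corn oil library, whereas that of Adamts1 was. No such share can pass an exact permutation test here, since 2 libraries against 2 cannot go below p = 0.3333.

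**Figure D1:**
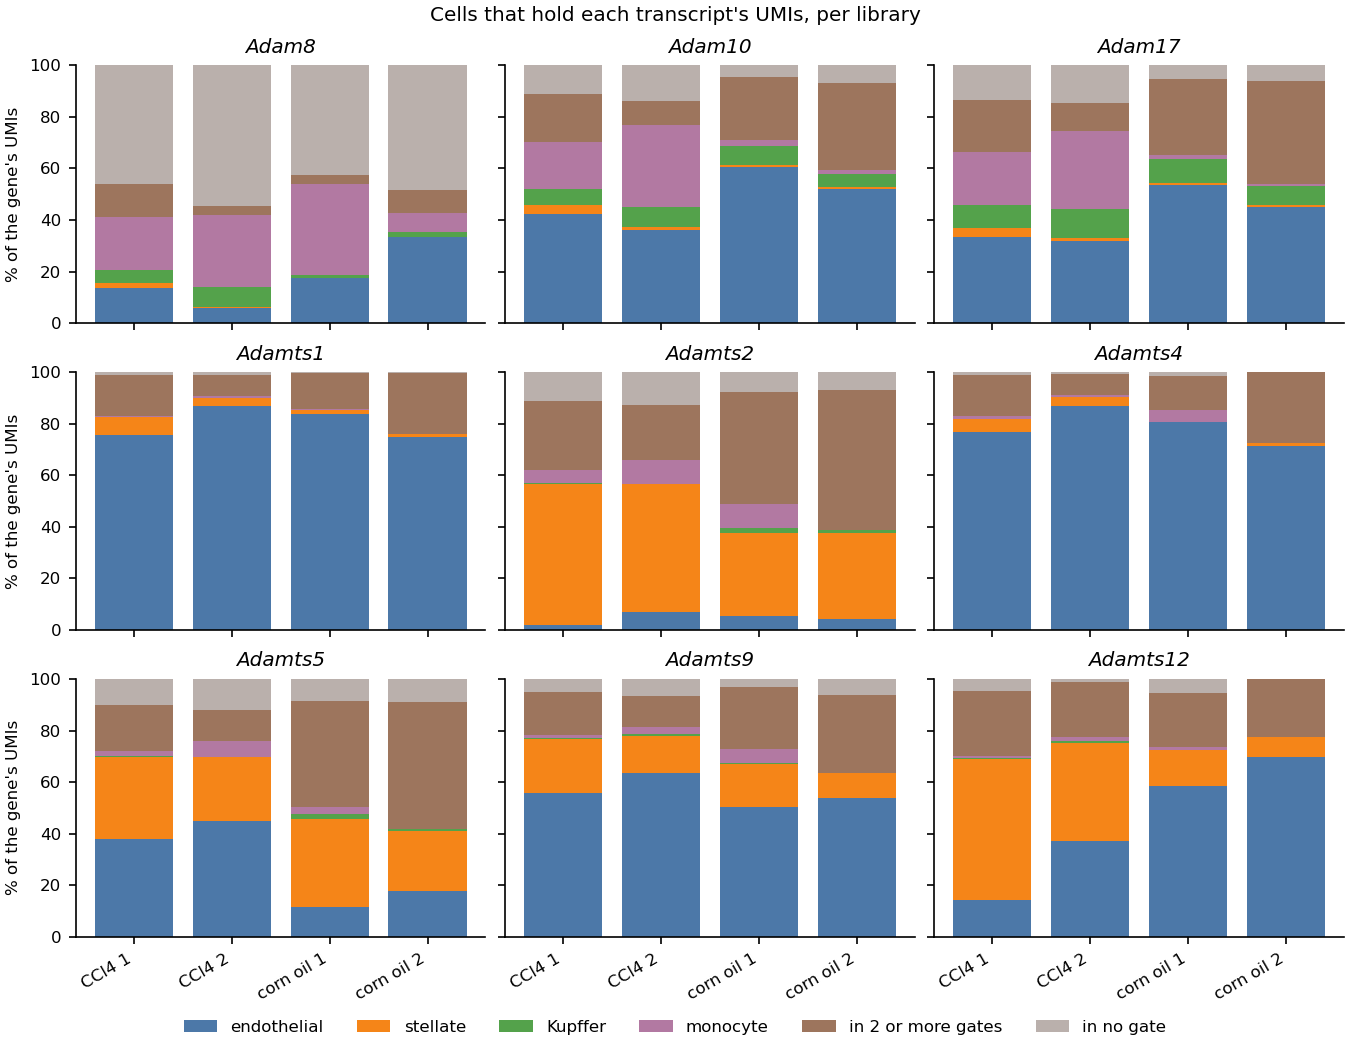
Share of each gene's UMIs held by each gate (percent, vertical axis) in every library, CCl4 libraries left of corn oil libraries. Adamts1 and Adamts4 UMIs come mostly from the endothelial gate in all 4 libraries, while the stellate share of Adamts12 is 54.6% and 38.2% in CCl4 mice and 13.9% and 7.75% in corn oil mice.

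In endothelial cells, 3 secreted proteases rose in CCl4 mice. Adamts4 showed the greatest fitted change of the 9 members, and Adamts5 and Adamts9 rose about equally on the log2 scale. Adam10, Adam17 and Adamts1 were not called. Of the 9 members, 3 were called higher and none lower, where 2.85% of the 13388 genes tested were called higher and 2.57% lower. DESeq2 also called 3 members, and 5 members had an unadjusted p under 0.05, as did 3187 of the 13388 genes. The CCl4 libraries were both above the corn oil libraries for 8 of 9 members, against 33.7% of all genes tested. The median log2 fold change was 0.94 over the members and -0.0003 over all genes tested.

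Adamts4 was at 158 and 78.1 CPM in CCl4 endothelial cells, against 7.87 and 4.31 in corn oil endothelial cells. The groups did not overlap, and CCl4 replicate 1 was the higher of the CCl4 pair. The log2 fold change was 4.22 (SE 0.44, edgeR adjusted p = 0.00616). After every cell was thinned to 2000 UMIs, 20.2% and 11.9% of CCl4 endothelial cells held an Adamts4 UMI, against 1.59% and 0.94% of corn oil endothelial cells. Without thinning the shares were 44.8% and 26.3% against 3.57% and 1.75%. In Kupffer cells, which carry little Adamts4, the thinned shares were 0.44% and 0% against 0% and 0%.

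Adamts5, the other main aggrecanase of cartilage, was at 21.1 and 27.2 CPM in CCl4 endothelial cells, against 3.23 and 4.73 in corn oil endothelial cells. Its log2 fold change was 2.54 (SE 0.24, edgeR adjusted p = 0.00495). Thinned shares of cells with an Adamts5 UMI were 3.31% and 3.97% in CCl4 mice and 0.55% and 0.80% in corn oil mice. Both replicates of each group were close, and the groups were apart on both scales. Adamts9, which cuts versican and is needed for vessel and heart development in mice, was at 37.8 and 23.4 CPM in CCl4 endothelial cells, against 5.57 and 5.67 in corn oil endothelial cells. Its log2 fold change was 2.40 (SE 0.27, edgeR adjusted p = 0.00794), again with no overlap.

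Markers of stellate cells summed to 335 and 422 CPM in the CCl4 endothelial gate, against 157 and 189 in the corn oil endothelial gate, with 11250 to 20785 in the stellate gate. This list therefore moved with the 3 genes, and its part in their change was not tested. When cells with 2 or more UMIs of another gate's defining markers were dropped, the log2 fold changes were 4.26 for Adamts4, 2.59 for Adamts5 and 2.40 for Adamts9, and all 3 remained called.

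The other members of the endothelial gate missed the threshold. Adamts12 was at 5.64 and 7.58 CPM in CCl4 mice, against 3.19 and 3.40 in corn oil mice (log2 fold change 0.93, edgeR adjusted p = 0.0908). Adamts1 was at 1205 and 826 in CCl4 mice against 735 and 809 in corn oil mice (0.34, adjusted p = 0.391), with only a narrow gap between the groups. Adamts2 was low throughout, at 1.36 and 2.28 against 1.15 and 0.718. Adam10 was at 161 and 201 against 171 and 178, the only member whose groups overlapped, and Adam17 at 70.4 and 75.2 against 56.7 and 66.7.

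Adam8 in the endothelial gate was at 41.9 and 17.4 CPM in CCl4 mice, against 2.70 and 12.4 in corn oil mice (log2 fold change 1.94, SE 0.70, edgeR adjusted p = 0.155). The spread within both groups was wide, and the gene was called when corn oil replicate 2 was left out (3.42, adjusted p = 0.00606). Its UMIs sat in 146 and 82 cells of CCl4 mice and in 45 and 61 cells of corn oil mice, with up to 81 and 34 UMIs in a single cell against up to 14 and 46. Neutrophil markers in this gate summed to 54.9 and 52.2 CPM in CCl4 mice, against 4.81 and 14.1 in corn oil mice, with all 3 markers detected in the CCl4 gates. Monocyte markers summed to 513 and 381 against 263 and 657. The part of such cells in the Adam8 level was not tested.

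**Figure D2:**
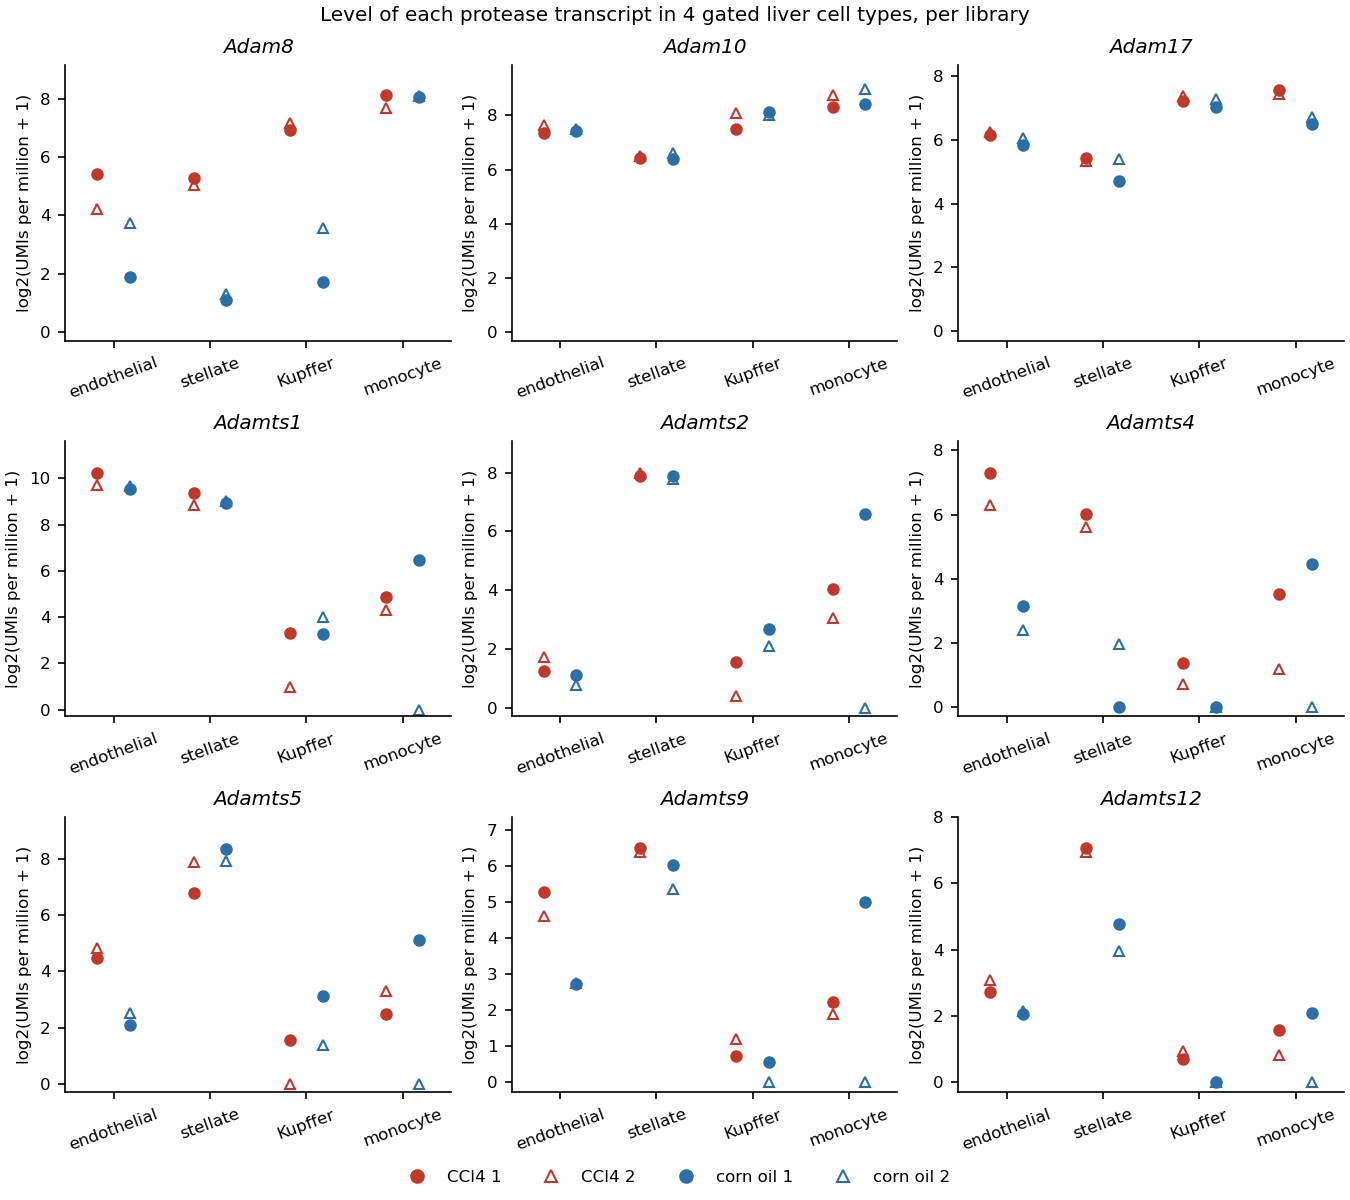
Level of each of the 9 members (log2 of CPM + 1, where CPM is UMIs per 1000000 UMIs of the gate) in the 4 gates, with 1 point per library and CCl4 left of corn oil. In the endothelial gate the CCl4 points of Adamts4, Adamts5 and Adamts9 lie above both corn oil points, and in the Kupffer gate Adam8 is at 122 and 142 CPM in CCl4 mice and at 2.25 and 10.9 CPM in corn oil mice.

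Endothelial cells differ along the liver lobule, so the gate was split into pericentral cells (UMIs of Wnt2, Rspo3, Kit and Thbd) and periportal cells (Efnb2, Dll4, Msr1 and Ltbp4). The pericentral set held 1002 and 728 cells in CCl4 mice and 1964 and 1369 in corn oil mice, and the periportal set 1969 and 1981 against 3037 and 3657. Across treatments, Adamts9 was higher in pericentral cells (log2 difference 0.67, SE 0.13, edgeR adjusted p = 0.0236, higher in 4 of 4 libraries). Adam8 was lower in pericentral cells (-1.14, SE 0.19, adjusted p = 0.0138, lower in 4 of 4 libraries). These 2 of 9 members were called, where 8.04% of 12136 genes were. Both calls were lost without CCl4 replicate 1, with 0.50 (adjusted p = 0.134) for Adamts9 and -1.25 (adjusted p = 0.065) for Adam8, and that of Adamts9 also without CCl4 replicate 2 (0.64, adjusted p = 0.124). Msr1 is also a macrophage gene, and monocyte markers summed to 447 and 339 CPM in pericentral and 534 and 369 in periportal cells of CCl4 mice, against 172 and 195 in pericentral and 314 and 766 in periportal cells of corn oil mice. Neutrophil markers summed to 25.2 and 40.3 CPM in pericentral and 70.3 and 59.2 in periportal cells of CCl4 mice, against 1.17 and 9.46 in pericentral and 7.43 and 16.7 in periportal cells of corn oil mice, and were lower in pericentral cells in 4 of 4 libraries. The part of either list in the Adam8 difference was not tested.

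The CCl4 effect on Adamts4 was larger in pericentral cells, in a comparison added after the values had been seen. Adamts4 was at 257 and 142 CPM in pericentral cells of CCl4 mice, against 6.40 and 2.84 in those of corn oil mice. In periportal cells it was at 102 and 49.6 in CCl4 mice, against 8.83 and 4.75 in corn oil mice. The gene was thus higher in pericentral than periportal cells in both CCl4 mice and lower in both corn oil mice. The difference of the effects was 2.00 on the log2 scale (SE 0.16, edgeR adjusted p = 1.53e-05), that is, pericentral minus periportal.

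For Adamts1 the CCl4 effect was smaller in pericentral cells (-0.32, SE 0.06, edgeR adjusted p = 0.00452). Its pericentral levels were 1267 and 899 CPM in CCl4 mice against 891 and 1058 in corn oil mice, and its periportal levels 1175 and 797 against 643 and 728. Pericentral levels thus overlapped between the groups, while periportal levels did not. Adamts5 (0.67, adjusted p = 0.165) and Adamts9 (0.53, adjusted p = 0.111) had effects that were not called different between zones. Without CCl4 replicate 2, Adamts5 was called (0.97, adjusted p = 0.0415). In all, 2 of 9 members were called, against 10.4% of 12751 genes.

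**Figure D3:**
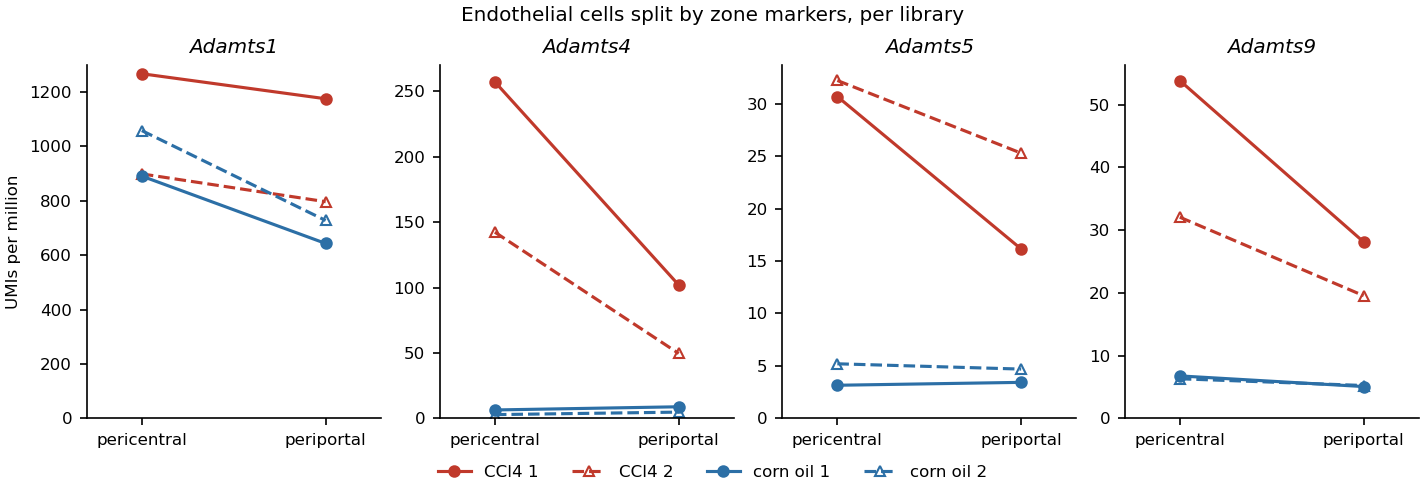
Levels of Adamts1, Adamts4, Adamts5 and Adamts9 (CPM, linear axes from 0) in pericentral and periportal endothelial cells, with a line for each library. Adamts4 in CCl4 mice is at 257 and 142 in pericentral cells and at 102 and 49.6 in periportal cells, while in corn oil mice it is at 6.40 and 2.84 against 8.83 and 4.75.

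In stellate cells, the main matrix-producing cells of the fibrotic liver, Adamts12, Adamts4 and Adam8 rose in CCl4 mice. Adamts2 and Adamts1 were not called, and Adamts5, lower in both CCl4 libraries than in either corn oil library, was not called. Of the 9 members, 3 were called higher and none lower, where 5.29% of the 8978 genes tested were called higher and 4.91% lower. DESeq2 also called 3. The CCl4 libraries were both above the corn oil libraries for 4 members and both below for 1, where 30.6% of all genes tested were above and 2243 of 8978 below. The members' median log2 fold change was 0.28, against -0.002 over all genes tested.

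Adamts12, which cuts cartilage oligomeric matrix protein, was at 132 and 123 CPM in CCl4 stellate cells, against 26.3 and 14.7 in corn oil stellate cells. The log2 fold change was 2.56 (SE 0.27, edgeR adjusted p = 0.00109). Thinned shares of cells with an Adamts12 UMI were 24.5% and 19.4% in CCl4 mice and 5.03% and 2.84% in corn oil mice, or 52.4% and 45.1% against 10.1% and 4.14% without thinning. The groups were far apart on each scale.

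Adamts4 was at 64.0 and 48.3 CPM in CCl4 stellate cells, against 0 and 2.93 in corn oil stellate cells. These are 252 and 59 UMIs against 0 and 2, and a count of 0 in corn oil replicate 1 allows up to 3.43 CPM. The pooled levels differed 46.9-fold, with an exact 95% interval of 12.9 to 389 that covers counting error only. The fitted log2 fold change of 5.35 (SE 0.64, edgeR adjusted p = 0.00187) depends on the prior count used for the sample at 0. Over the alternatives it ran from 4.16 to 9.85, with 9.40 for purer gates, and is no measure of size. Without CCl4 replicate 1 the call was lost (5.05, adjusted p = 0.0652).

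Adam8 was at 37.6 and 31.9 CPM in CCl4 stellate cells, against 1.14 and 1.47 in corn oil stellate cells. The counts were 148 and 39 UMIs against 1 and 1, a pooled ratio of 28.2 with an exact 95% interval of 7.69 to 234 for counting error only. The log2 fold change was 4.66 (SE 0.55, edgeR adjusted p = 0.00174), lost without CCl4 replicate 1 (4.47, adjusted p = 0.0648). These UMIs came from 23 of 462 and 9 of 144 CCl4 cells and from 1 of 179 and 1 of 145 corn oil cells, so few stellate cells carried the gene. Neutrophil markers in this gate summed to 25.9 and 34.4 CPM in CCl4 mice, against 0 and 185 in corn oil mice, where all 3 markers were at 0 in corn oil replicate 1. Monocyte markers summed to 1493 and 1367 against 1420 and 641. Kupffer markers summed to 125 and 133 in CCl4 mice against 48.1 and 51.3 in corn oil mice, with no overlap. The part of other cells in the stellate Adam8 level was not tested.

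Adamts5 was at 110 and 236 CPM in CCl4 stellate cells, against 330 and 242 in corn oil stellate cells (log2 fold change -0.80, SE 0.32, edgeR adjusted p = 0.161). The highest CCl4 value lay just below the lowest corn oil value. Adamts9 was at 88.3 and 82.7 against 64.1 and 39.6 (0.67, adjusted p = 0.121). Adamts2, whose product removes the amino-terminal propeptide of fibrillar collagens, was at 234 and 255 against 238 and 221 (0.04, adjusted p = 0.906). In the same cells the collagen genes Col1a1 (1.98, adjusted p = 0.00432) and Col1a2 (0.92, adjusted p = 0.0322) rose. Adamts1 was at 668 and 464 against 488 and 519, Adam10 at 84.8 and 90.0 against 83.5 and 96.8, and Adam17 at 42.1 and 39.3 against 25.2 and 41.1, all 3 with overlapping groups.

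The CCl4 effect on Adamts5 was called different between cell types. It was lower in stellate than in endothelial cells by 3.33 on the log2 scale (stellate minus endothelial -3.33, SE 0.52, edgeR adjusted p = 0.01), and no other member was called in this contrast, where 0.942% of 12629 genes were. The call was lost without CCl4 replicate 1 (-2.93, adjusted p = 0.196), without CCl4 replicate 2 (-3.67, adjusted p = 0.118) and with DESeq2 (adjusted p = 0.274). Adamts9 was called in this contrast without corn oil replicate 2 (-1.91, adjusted p = 0.0471), and Adam8, Adamts9 and Adamts12 with no filter on low counts (adjusted p = 0.0144, 0.000249 and 0.00106). For the other members named above, the differences of effects were 1.71 for Adamts12 (adjusted p = 0.0993), -1.61 for Adamts9 (0.127), 1.28 for Adamts4 (0.804) and 2.67 for Adam8 (0.532).

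Stellate cells were also split by their UMIs of Acta2 and Tagln, contractile genes of activated stellate cells and myofibroblasts. Cells with 5 or more such UMIs numbered 245 and 61 in CCl4 mice but 11 and 6 in corn oil mice, too few for a test under the minimum of 20 cells per library. Within CCl4 mice, Adamts4 was at 78.8 and 81.1 CPM in contractile-high cells and at 38.9 and 7.93 in contractile-low cells. Adamts12 was at 154 and 167 in contractile-high and at 104 and 60.8 in contractile-low cells. Adam8 ran the other way, at 22.6 and 14.3 in contractile-high and 45.2 and 76.7 in contractile-low cells. Each of these 3 orders held in both CCl4 mice, with no test. In CCl4 replicate 2 the contractile-low set had 53 cells and 3 Adamts4 UMIs. Adam8 had 9 UMIs in contractile-high and 29 in contractile-low cells of that library, so the orders rest on few counts there.

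In Kupffer cells, the resident macrophages of the liver, Adam8 rose in CCl4 mice and no other tested member was called. Only Adam8, Adam10, Adam17 and Adamts1 had enough UMIs to be tested, and 1 of these 4 was called higher, where 7.55% of 9918 genes were called higher and 7.79% lower. DESeq2 also called 1. Adam8 was at 122 and 142 CPM in CCl4 Kupffer cells, against 2.25 and 10.9 in corn oil Kupffer cells, from 381 and 449 UMIs against 5 and 20. The log2 fold change was 4.32 (SE 0.41, edgeR adjusted p = 0.000646).

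After thinning, 13.6% and 13.8% of CCl4 Kupffer cells held an Adam8 UMI, against 0.922% and 1.83% of corn oil Kupffer cells. Without thinning the shares were 22.8% and 25.3% against 0.92% and 2.70%. In endothelial cells the thinned shares were 1.85% and 1.40% in CCl4 mice and 0.322% and 0.655% in corn oil mice, with median depths of 6778 and 6148 UMIs per cell against 5194 and 4243, where Kupffer cells had 13570.5 and 14622 against 8689 and 7502. Adam8 was thus more frequent in Kupffer than in endothelial cells in CCl4 mice. In corn oil mice the Kupffer shares rest on 2 and 6 cells with an Adam8 UMI before thinning, and the Adam8 levels of the endothelial and Kupffer gates overlapped. Neutrophil markers in the Kupffer gate summed to 13.4 and 11.7 CPM in CCl4 mice, against 0.450 and 2.72 in corn oil mice. Monocyte markers summed to 6863 and 5016 against 5700 and 7681, with overlapping groups. The part of either in the Adam8 change was not tested, and with purer gates the log2 fold change was 4.84 (adjusted p = 0.000167).

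Adam10, Adam17 and Adamts1 were tested in Kupffer cells and not called. Adam10 was at 179.7 and 272 CPM in CCl4 mice against 277 and 256 in corn oil mice (log2 fold change -0.30, edgeR adjusted p = 0.299). Adam17 was at 149.6 and 165 against 131 and 154 (0.07, adjusted p = 0.794). Adamts1 was at 8.95 and 0.946 against 8.55 and 15.2 (-1.30, adjusted p = 0.252), and it was called lower without CCl4 replicate 1 (-3.65, adjusted p = 0.0208) and with no filter on low counts (-1.23, adjusted p = 0.0295). Adamts2, Adamts4, Adamts5, Adamts9 and Adamts12 had at most 7.65 CPM in any library. The CCl4 effects in Kupffer and endothelial cells were not called different for any of the 9 members, where 2.52% of genes were. The differences were 2.41 for Adam8 (edgeR adjusted p = 0.115) and -4.89 for Adamts5 (adjusted p = 0.0657). With no filter on low counts, Adam8 (2.38, adjusted p = 6.53e-10), Adamts1 (-1.68, adjusted p = 0.000249) and Adamts2 (-2.85, adjusted p = 0.000805) were called. Adamts5 was called without corn oil replicate 2 (-5.88, adjusted p = 0.0279), with raised gate thresholds (-4.39, adjusted p = 0.0437) and with no filter on low counts (-4.92), and its difference ran from -10.96 to -3.10 over all alternatives.

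In the monocyte gate, Adam8 was high in both groups and no member was called. Of 8 members tested, 0 were called by edgeR, 3 had an unadjusted p under 0.05, as did 2480 of 10191 genes, and DESeq2 called 1, Adam17. Over all genes, 5.47% of 10191 were called in either direction. Adam8 was at 278 and 206 CPM in CCl4 monocytes, against 269.5 and 275 in corn oil monocytes (log2 fold change -0.24, SE 0.22, edgeR adjusted p = 0.541). Adam10 was at 313 and 433 against 339 and 507 (-0.24, adjusted p = 0.646). Adam17 was at 192 and 173 against 90.4 and 104 (0.85, SE 0.19, adjusted p = 0.0678), with no overlap. Adamts1 was at 28.0 and 18.9 CPM in CCl4 monocytes, against 87.1 and 0 in corn oil monocytes, and Adamts2 at 15.6 and 7.37 against 95.2 and 0. The values were 10.4 and 1.27 against 21.0 and 0 for Adamts4, 4.57 and 8.89 against 33.9 and 0 for Adamts5, and 3.66 and 2.67 against 30.7 and 0 for Adamts9. Adamts12, not tested, was at 2.01 and 0.762 against 3.23 and 0. All 6 ADAMTS genes thus lay between the corn oil replicates in CCl4 mice, since all were at 0 in the 23 cells of corn oil replicate 2. Leaving that library out left 1 corn oil library of 43 cells. The log2 fold changes were then -1.93 for Adamts1, -3.11 for Adamts2, -2.33 for Adamts5, -3.31 for Adamts9 and 0.99 for Adam17. Without corn oil replicate 1 in its place, the fitted values of the ADAMTS genes were positive and not called, at 9.72 for Adamts1, 8.68 for Adamts2, 7.96 for Adamts5 and 6.84 for Adamts9, against a library at 0. Their direction in monocytes thus depended on which corn oil library was kept. Stellate markers in this gate summed to 272 and 188 CPM in CCl4 mice, against 1828 and 7.74 in corn oil mice, and their part in the ADAMTS levels was not tested.

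The CCl4 effect on Adam8 was lower in monocytes than in Kupffer cells by 4.82 on the log2 scale (monocyte minus Kupffer -4.82, SE 0.72, edgeR adjusted p = 0.00139). For Adam17 it was higher in monocytes (0.79, SE 0.21, adjusted p = 0.028). These 2 of 9 members were called, where 14.2% of genes were. The Adam17 call was lost without CCl4 replicate 1 (0.65, adjusted p = 0.316), without CCl4 replicate 2 (0.92, adjusted p = 0.173) and without corn oil replicate 1 (0.79, adjusted p = 0.116).

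By level, Adam8 in CCl4 mice ran from the monocyte gate (242 ± 51.2 CPM, SD, n = 2) to the Kupffer gate (132 ± 14.0), the stellate gate (34.7 ± 3.99) and the endothelial gate (29.7 ± 17.3). The stellate and endothelial gates did not differ beyond their spread. In corn oil mice the monocyte gate was again the highest, the endothelial and Kupffer gates overlapped, and the stellate gate was the lowest. Cells in no gate had 519.9 and 528 CPM of Adam8 in CCl4 mice, against 79.9 and 150.4 in corn oil mice. They held 46.1% and 54.8% of all Adam8 UMIs in CCl4 mice and 42.4% and 48.2% in corn oil mice. In those cells neutrophil markers summed to 193 and 287 CPM in CCl4 mice, against 3.19 and 16.1 in corn oil mice.

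**Figure D4:**
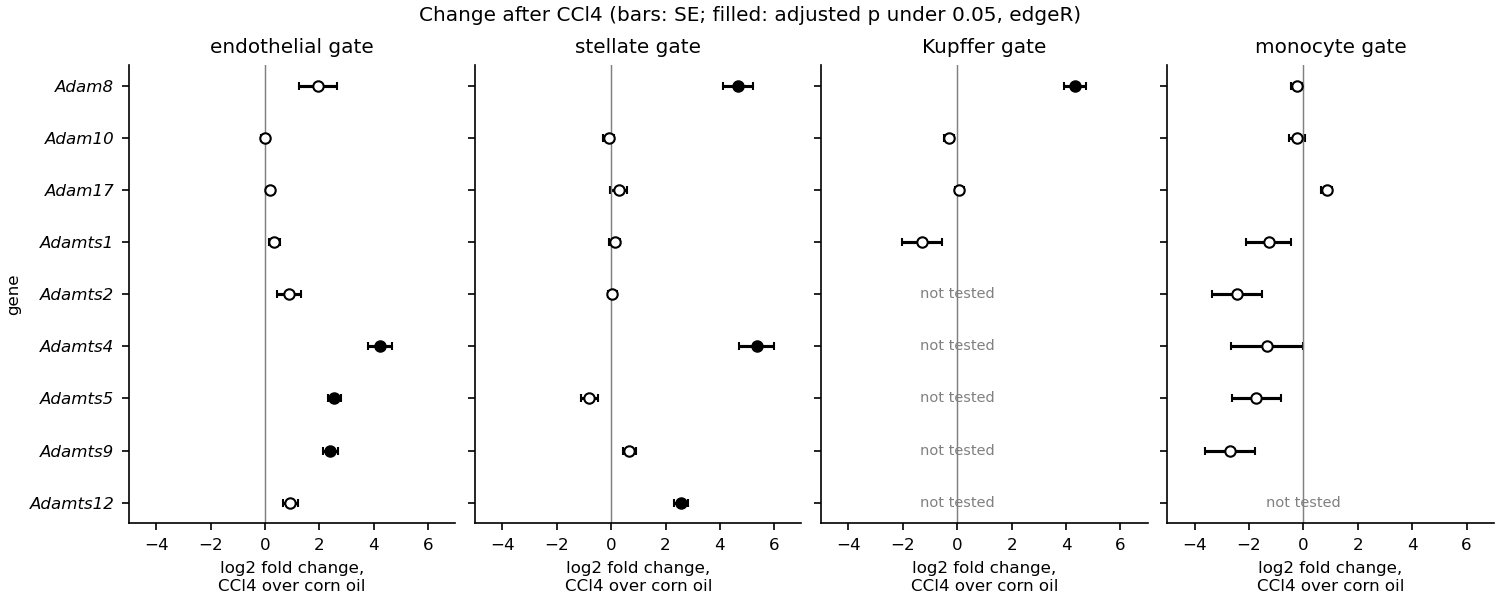
Log2 fold change, CCl4 over corn oil, of each member in each gate, with bars of 1 SE from edgeR and filled points for adjusted p under 0.05; members with too few UMIs are marked as not tested. Filled points are Adamts4, Adamts5 and Adamts9 in endothelial cells, Adam8, Adamts4 and Adamts12 in stellate cells, and Adam8 in Kupffer cells.

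Summed over all cells kept, Adam8, Adamts4, Adamts9 and Adamts12 rose in CCl4 mice. Adam8 averaged 139.3 ± 0.90 CPM in CCl4 mice and 15.4 ± 7.61 in corn oil mice (SD, n = 2 each), with a log2 fold change of 3.11 (edgeR adjusted p = 0.00618). Adamts4 averaged 67.2 ± 36.4 against 4.82 ± 2.06 (3.74, adjusted p = 0.00962). Adamts9 averaged 23.8 ± 9.67 against 6.50 ± 0.89 (1.81, adjusted p = 0.0194), and Adamts12 13.6 ± 5.88 against 3.12 ± 0.57 (2.06, adjusted p = 0.0193). These totals mix changes within cells with changes in the numbers of each cell type. Of the 9 members, 4 were called higher and none lower, where 7.34% of 15049 genes were called higher and 6.88% lower. DESeq2 called 5, the further one being Adamts5 (0.63, DESeq2 adjusted p = 0.0125). Adamts5 was at 25.2 and 27.8 CPM in CCl4 mice against 17.9 and 14.8 in corn oil mice (0.62, edgeR adjusted p = 0.0501).

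The 4 calls depended on single libraries in this sum. Without CCl4 replicate 1, the adjusted p was 0.0725 for Adam8 (log2 fold change 3.08), 0.0646 for Adamts4 (3.003), 0.0879 for Adamts9 (1.28) and 0.0979 for Adamts12 (1.49). Adamts9 and Adamts12 were also lost without corn oil replicate 1 (adjusted p = 0.0578 and 0.0555) and without corn oil replicate 2 (adjusted p = 0.0844 and 0.0822).

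Counts for inhibitors, relatives and substrates of the members are read against all genes tested, of which 2.85% were called higher and 2.57% lower in endothelial, 5.29% and 4.91% in stellate, 7.55% and 7.79% in Kupffer, and 2.40% and 3.06% in monocyte cells. With lists this short, 1 or 2 genes make a large share. In endothelial cells, 1 of 5 tested inhibitors rose and 2 fell in CCl4 mice. Timp1 was at 20.8 and 12.3 CPM in CCl4 mice, against 2.40 and 1.82 in corn oil mice (log2 fold change 2.92). Timp3, the TIMP that binds matrix and inhibits ADAM17 and aggrecanases, was at 1361 and 1474 against 2099 and 2235 (-0.67), and Timp2 fell by 0.89. In stellate cells, 1 of 4 inhibitors rose and 1 fell. Timp1 was at 224 and 162 in CCl4 mice against 6.87 and 1.47 in corn oil mice (5.39), and Reck, a membrane-anchored inhibitor, fell by 1.71. In Kupffer cells both tested inhibitors fell, Timp3 by 2.17 and Timp2 by 0.94. Stellate and endothelial markers were lower in the Kupffer gate of CCl4 mice too. Neutrophil markers were higher there and monocyte markers overlapped, as given above. Stellate markers summed to 170 and 89.2 CPM in CCl4 mice against 337 and 371 in corn oil mice, and endothelial markers to 468 and 514 against 690 and 614, and their part was not tested. In monocytes 1 of 3 fell, Timp2 by 2.72.

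Of the other ADAMTS and ADAMTS-like genes, 4 of 9 tested fell in stellate cells and 5 were not called, at a median log2 fold change of -0.91. Adamtsl4, a microfibril-binding protein, was at 65.2 and 76.1 CPM in CCl4 mice, against 317 and 303.5 in corn oil mice (-2.19). Adamts13, the von Willebrand factor-cleaving protease that stellate cells make, was at 77.2 and 41.7 against 144 and 180 (-1.44), Adamtsl2 fell by 1.36 and Adamts10 by 0.91. None of the 10 tested genes of the list was called in endothelial cells or of the 2 in Kupffer cells, and 1 of 4 fell in monocytes, Adamtsl5 by 4.79, with 3 and 8 UMIs in CCl4 libraries against 9 and 9 in corn oil libraries.

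Among other ADAM genes, Adam15 rose in endothelial cells, at 255 and 261 CPM in CCl4 mice against 153 and 128 in corn oil mice (log2 fold change 0.82), the only call among 8 tested. In stellate cells 2 of 5 rose, Adam23, a noncatalytic adhesion protein, by 2.17 and Adam9 by 0.87. In Kupffer cells 2 of 6 fell, Adamdec1 by 1.71 and Adam15 by 0.94. None of 5 was called in monocytes. The iRhom and tetraspanin partners, which carry ADAM17 and ADAM10 to the surface, gave no call among 8, 5, 7 and 6 tested genes in the endothelial, stellate, Kupffer and monocyte gates. Of the proprotein convertases, only Pcsk6 was called, lower in stellate cells by 2.08.

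Known substrates were mixed. Of the ADAMTS substrates, 3 of 7 tested rose in stellate cells, led by Thbs1 (log2 fold change 5.29), with Col1a1 and Col1a2 above, and Dcn, which is also a stellate marker, fell by 0.85. In endothelial cells 1 of 8 fell, Bgn by 0.97, and in monocytes none of 7 was called. In Kupffer cells 3 of 6 fell, Col3a1 by 2.65, Dcn by 1.85 and Bgn by 1.75, and Thbs1 rose (2.63). Col3a1, Dcn and Bgn are genes of mesenchymal cells, and the stellate marker sums of the Kupffer gate given above were lower in CCl4 mice as well.

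Of the ADAM10 and ADAM17 substrates, Procr, the endothelial protein C receptor, rose in endothelial cells (log2 fold change 1.89) and Mertk, an efferocytosis receptor, fell by 0.64, with 24 of 26 not called. In stellate cells 4 of 24 rose and none fell, namely Ereg (1.51), Axl (1.06), Cd44 (0.90) and Icam1 (0.82). In Kupffer cells 2 of 20 rose and 4 fell, the first share close to that of all genes. Procr (2.34) and Trem2 (1.55) rose, while Il6ra, the interleukin 6 receptor, fell by 1.02 and Hbegf by 0.82. Of the ADAM8 partners and substrates, Itgam was at 250 and 255 CPM in CCl4 Kupffer cells against 67.9 and 86.0 in corn oil Kupffer cells (1.65), Itgb2 rose there (0.54), and Itgb1 fell by 1.52 in monocytes. Itgam was also among the monocyte markers.

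Genes with profiles most like the members were ranked by Pearson's r of log2 levels over the 16 sums of gate and library, among 8849 genes. The sums share libraries and gates, and r describes mostly the cell types that hold a gene. Adam8 was nearest to Ldha (0.948), Pgk1 (0.944) and Clec4d (0.931), and Adam17 to Capza2 (0.976). Adam10 was nearest to Naip2 (0.981). Adamts1 was nearest to Gja1 (0.987) and F2r (0.984), and Adamts2 to Lum (0.993) and Pdgfra (0.989), so Adamts2 had mesenchymal genes as neighbours. By the same measure Adamts4 was nearest to Ch25h (0.938), Gm12840 (0.922) and Bmper (0.920), and Adamts5 to P3h3 (0.957). Adamts9 was nearest to Dbn1 (0.978) and Adamts12 to Tpm1 (0.969).

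Some members overlap other genes on the opposite strand, and the sources used here do not say how the counting used strand. Adamts9 overlaps A730049H05Rik, with 131 and 47 UMIs over all cells kept in CCl4 libraries against 7 and 3 in corn oil libraries, and 9530026P05Rik, with 55 and 27 against 91 and 131. Adam17 overlaps Iah1. Reads of such pairs cannot be told apart if strand was not used.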

How the data were processed

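Nonparenchymal cells from 4 mouse livers were profiled with BD Rhapsody single-cell RNA-seq. The authors deposited 1 table of UMI counts per cell and gene for each library, made with BD WTA Rhapsody Analysis Pipeline 1.9.1, per the file headers. The counts were used as deposited. The cell filter was a minimum of 200 genes and a maximum of 25% mitochondrial UMIs. Gates needed 5 UMIs of Kdr, Ptprb and Egfl7 (endothelial), of Reln, Colec11 and Lrat (stellate) or of Clec4f (Kupffer), or 3 of Chil3, F13a1 and Vcan with at most 2 of Clec4f (monocyte). Cells in 2 or more gates were dropped, and no doublet caller was run. UMIs were summed per gate and mouse, and tested with edgeR 4.0.16 (TMM, filterByExpr, quasi-likelihood; R 4.3.3). Differences of effects came from 1 fit with the mouse as a block. Zones needed 3 UMIs and more than the other set. Intervals and floors cover counting error only, and a floor is 3 counts. Depth is the library's UMI total. PCR copies were already merged by UMI.

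The members and lists were chosen with earlier results of these data known. All 9 members are named by rule. From each list, up to 4 called genes with the largest absolute log2 fold change and a mean of at least 5 CPM are named, and for each member up to 3 genes with the highest Pearson correlation. Dcn, Col1a1 and Col1a2 are within that rule. Alternatives were DESeq2 1.42.0, other size factors, no filter on low counts, a replicate block, leaving out each library, at most 15% mitochondrial UMIs, raised gate thresholds and purer gates. Scripts were tested on simulated data. Some genes that the rule names are not reported here.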

Additional observations from a re-analysis of the deposited data

Results flagged for a closer look

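For 5 members the CCl4 effect was called different between cell sets, each from 4 mice. The test was of the difference itself (edgeR, adjusted over all genes tested). On the log2 scale it was -3.33 for Adamts5, stellate minus endothelial cells (adjusted p = 0.01), a call lost without either CCl4 library (adjusted p = 0.196 and 0.118) and with DESeq2 (0.274). For monocyte minus Kupffer cells it was -4.82 for Adam8 (adjusted p = 0.00139) and 0.79 for Adam17 (adjusted p = 0.028), the call of Adam17 being lost without CCl4 replicate 1 (0.316), CCl4 replicate 2 (0.173) or corn oil replicate 1 (0.116). The comparison of pericentral minus periportal endothelial cells was added after the values were seen. The difference there was 2.00 for Adamts4 (edgeR adjusted p = 1.53e-05) and -0.32 for Adamts1 (adjusted p = 0.00452). Of all genes tested, 0.942% were called for stellate minus endothelial, 14.2% for monocyte minus Kupffer and 10.4% for pericentral minus periportal cells. For Kupffer minus endothelial cells 2.52% of genes were called, and no member was.

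Cells that fell into no gate, which entered none of the comparisons by cell type, had a mean Adam8 level of 524 CPM in CCl4 mice, above the 79.9 and 150.4 in the 2 corn oil mice.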

How the results depend on the processing

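The calls of Adamts4, Adamts5 and Adamts9 in endothelial cells, of Adamts12 in stellate cells and of Adam8 in Kupffer cells held under all 11 alternatives, with log2 fold changes of 3.56 to 4.73, 2.29 to 2.84, 1.94 to 2.73, 2.28 to 3.02 and 3.51 to 5.83. The zone differences of Adamts4 (1.91 to 2.21) and Adamts1 (-0.35 to -0.30) also held under all alternatives run. With CCl4 replicate 1 left out, the stellate calls of Adam8 and Adamts4 were lost. Some members were called only under an alternative. Over all cells, Adamts5 was called with DESeq2, with other size factors and with a replicate block, and Adamts2 with a replicate block. Stellate Adamts5 was called without corn oil replicate 2 (-0.96) and at a limit of 15% mitochondrial UMIs (-1.10, edgeR adjusted p = 0.0449). Stellate Adamts9 was called without corn oil replicate 1 (1.01). Monocyte Adam17 was called with DESeq2 (0.84, adjusted p = 0.0429) and with purer gates (1.14, edgeR adjusted p = 0.0463). With no filter on low counts, Adam8 (1.94) and Adamts12 (0.92) were called in endothelial cells, and Adamts5 (-0.72) and Adamts9 (0.75) in stellate cells. Adamts1 was then called in Kupffer cells, and Adam17, Adamts1, Adamts2, Adamts5 and Adamts9 in monocytes. Monocyte minus Kupffer Adamts4 was called with raised gate thresholds (-9.15, SE 2.56, edgeR adjusted p = 0.0331). At the main thresholds Kupffer cells held 5 and 2 Adamts4 UMIs in CCl4 mice and 0 and 0 in corn oil mice. The value is thus no measure of size. Calls of members in monocytes also changed without corn oil replicate 2, a fit that left 1 corn oil library. Adamts2 in the monocyte gate against the other 3 gates was not called with DESeq2 (1.16, DESeq2 adjusted p = 0.0805). Its difference changed sign without corn oil replicate 1, at -4.27, where it was 1.53 with all libraries and 1.79 without corn oil replicate 2. The cause was not tested.

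Counts of all genes called moved more. With DESeq2 they were 1414 (endothelial), 586 (stellate), 783 (Kupffer), 845 (monocyte), 271 (stellate minus endothelial), 578 (Kupffer minus endothelial) and 519 (zone difference), where edgeR gave 726, 916, 1522, 557, 119, 318 and 1325. With no filter on low counts they were 2302, 1577, 2321, 2061, 613 and 1025 for the first 6 of these. Leaving out 1 library gave 183 to 894 in endothelial, 107 to 1345 in stellate, 585 to 1464 in Kupffer and 0 to 1658 in monocyte cells, and 74 to 964 over all cells, where 2140 were called. It gave 6 to 119 for stellate minus endothelial, 7 to 246 for Kupffer minus endothelial, 290 to 1617 for monocyte minus Kupffer cells (1789 with all libraries), and 416 to 780 for the zones (976). The monocyte count of 0 came without either CCl4 library, with 711 and 697 genes at an unadjusted p under 0.05. The cause of these shifts was not tested. A replicate block gave 2051 endothelial calls, and Adamts12 was then called (0.93, adjusted p = 0.0461), but the numbers in the labels name mice and do not pair them, with correlations of same-numbered deviations between -0.002 and 0.168. Contractile-high against contractile-low stellate cells was not run, as corn oil mice had 11 and 6 such cells. With 2 mice a group and 23 to 43 monocytes per corn oil mouse, small differences were not detectable.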
